A study of Mus musculus with 20 samples.

Results

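The difference between Mural-Zfp423 transgenic and control mice was examined as it appeared on average over both stromal populations of gonadal white fat, with cell type as a term of the model. All 20 of the 20 libraries entered, 5 each of control FIPs, transgenic FIPs, control APCs and transgenic APCs. FIPs (fibro-inflammatory progenitors, sorted as CD45-, CD31-, PDGFRb+ and LY6C+) and APCs (adipogenic visceral adipocyte precursor cells, sorted as CD45-, CD31-, PDGFRb+, LY6C- and CD9-) came from male mice given as 8 weeks old. Both genotypes had been housed at 30 °C and fed a diet with 60% of its calories as fat for 1 month, so no group on ordinary chow enters. Each library held pooled RNA of 2 mice out of 10 per genotype, so the FIP pools and the APC pools draw on the same mice; which libraries share them is not stated. The labels do not name the promoter that drives the transgene, and doxycycline is not mentioned in them; the strain is known elsewhere as one in which Pdgfrb regulatory sequence switches on Zfp423.

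Zfp423 is a zinc finger transcription factor that commits mesenchymal cells to the fat lineage. It binds partners of the EBF and SMAD families and can recruit a repressor complex, and in fat progenitors it has been described as a brake on inflammatory genes that NF-kB controls. FIPs are the stromal fraction known for making cytokines and matrix, APCs the fraction that readily forms fat cells.

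Of 54304 genes in the deposited table, 17435 were above 0 in at least 5 libraries and were tested. Values are log2 CPM (counts scaled to the size of the library, on a log2 scale), with 1 CPM or less listed as 0, and every difference below is transgenic minus control on that scale. The depth, an approximate estimate, was 6.6 to 8.5 megareads a library. Markers of the sorted populations stood, by their means, where the labels put them: Pi16 averaged 8.15 in FIPs and 5.45 in APCs, Pparg 5.29 and 6.26. The APC-side marker Icam1 differed little, at 7.98 in FIPs (7.69 to 8.17) and 8.11 in APCs (7.77 to 8.42). Cd36 also overlapped, at 7.55 to 8.16 in FIPs and 7.97 to 8.70 in APCs. The gate genes Ptprc (CD45) and Pecam1 (CD31), which the sort was meant to exclude, were detected in all libraries, at 3.93 and 6.17 log2 CPM in FIPs and 4.35 and 6.48 in APCs. The APC libraries numbered 1 stood apart from their groups: on the second principal component (13.7% of the variance) the transgenic one lay at 8.30, beside the control APCs (0.59 to 42.4), and the control one at -8.55, towards the other transgenic APCs (-16.8 to -39.1). The 2 libraries thus lie towards each other's genotype. Whether their labels were exchanged was not tested, and the labels were used as given.

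Zfp423 itself was not higher in the transgenic libraries. In FIPs it measured 5.47, 5.48, 5.47, 5.63 and 5.30 in the control libraries and 5.58, 5.47, 5.53, 5.54 and 5.52 in the transgenic libraries. In APCs it measured 4.96, 4.97, 4.98, 4.72 and 5.21 in the control libraries and 5.16, 4.73, 4.64, 4.47 and 4.52 in the transgenic libraries. The genotypes overlapped in each population, and 4 of the 5 transgenic APC values (4.47 to 4.73) lay around or below the lowest control (4.72). The averaged difference was -0.10 ± 0.07 (SE; limma adjusted p = 0.434; exact two-sided permutation within cell type, p = 0.244), with 0.06 in FIPs and -0.26 in APCs. Counts per gene do not separate transgene from endogenous transcripts, and no transgene feature was analysed, so the labels have no check from this gene; libraries are called transgenic by label.

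In the fit over both populations, limma called 896 genes (5.14% of those tested) at a Benjamini-Hochberg adjusted p under 0.05: 431 higher in transgenic cells (2.47%) and 465 lower (2.67%). Of these, 874 (5.01% of those tested) moved the same way in FIPs and APCs (421 higher, 453 lower), against 9508 of all 17435 tested genes (54.5%); the sign in each population is partly fixed by the call on their mean. The changes were small. The median called-higher gene differed by 0.21 on the log2 scale, a 1.16-fold rise, and the median called-lower gene by -0.48, a 0.72-fold level; 622 of the 896 differed by less than 0.5 and 12 by more than 1. Called-lower genes had medians of -0.25 in FIPs and -0.62 in APCs, while called-higher genes had 0.19 and 0.23. Within single populations, 65 genes were called in FIPs (0.373%) and 1396 in APCs (8.01%), and 279 of the 896 averaged calls were called in neither alone.

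A stricter description asked that the 5 control and 5 transgenic libraries not overlap in FIPs and again in APCs. It held for 31 genes of the 17435 tested (0.178%): 25 higher (0.143%) and 6 lower (0.0344%), all 31 of them among the 896 calls. At an unadjusted p under 0.05 in each population there were 421 called genes of like sign (257 higher, 164 lower), and 9 passed an adjusted p under 0.05 in each. The test of the difference between the populations (interaction) called 0 genes by limma. At an unadjusted p under 0.05 there were 2388 of 17435, with 222 of those among the 896. In other fits an interaction was counted only among the genes called on average. That count was 1 each with log2(CPM + 1) and quantile normalization. It ranged from 0 to 150 with 1 library left out, and was 515 without both APC libraries numbered 1.

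How many genes were called depended on how shared mice and single libraries were treated. Treating a FIP and an APC library of the same number as 1 pool of mice, an assumption the labels do not state, left 439 calls (2.52%) with the pool as a random effect and 56 (0.321%) when the 2 values of a pool were averaged to compare 5 with 5; 51 genes (32 higher, 19 lower) were called in all 3 fits. Without the APC libraries numbered 1 of both genotypes, 2594 genes were called, among them 888 of the 896. Since these 2 libraries lie towards each other's genotype, leaving them out in itself tends to widen the genotype difference. The rise in calls is therefore no separate support for the 896.

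Levels of other cell types' genes moved with genotype. The macrophage list summed to 512 to 935 CPM in control FIPs, 349 to 658 in transgenic FIPs, 644 to 1060 in control APCs and 413 to 687 in transgenic APCs. The erythroid list (mostly globin genes) summed to 480 to 549, 332 to 591, 829 to 1580 and 469 to 1070 CPM in the same order. With each library's mean macrophage level as a covariate, limma called 54 genes (41 higher, 13 lower), 37 of them among the 896; with the erythroid level it called 13 (8 higher, 5 lower), 11 of them among the 896. Both covariates were added after the data were seen. They differ between the genotypes, so their part in a result and that of the genotype cannot be told apart. Of the 100 called genes picked for naming, 17 were called with pool means, 13 with the macrophage covariate and 5 with the erythroid covariate; Alpl, Epha2, Zbtb16 and Cd248 were called in all 47 alternatives tried.

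Among the higher genes, Alpl had the smallest adjusted p. It encodes the tissue-nonspecific alkaline phosphatase of the cell surface, and the gene lies at chr4:137741733-137796384 (GRCm38, minus strand). In FIPs it measured 4.76, 4.77, 4.57, 4.84 and 4.88 in the control libraries and 5.48, 5.32, 5.53, 5.40 and 5.30 in the transgenic libraries. The APC libraries gave 5.88, 6.09, 6.07, 6.30 and 6.10 in the control libraries and 6.45, 6.58, 6.63, 6.50 and 6.57 in the transgenic libraries. Every transgenic library lay above every control library of its population. Averaged over both populations, it differed by 0.55 ± 0.05 (SE, adjusted p = 5.40e-06), a 1.46-fold level, with 0.64 in FIPs and 0.46 in APCs. It was also called with pool means (adjusted p = 0.0035), the macrophage covariate (4.13e-04) and the erythroid covariate (1.24e-04). Of 11 tested genes of the mineralization list, Slc20a1, a phosphate transporter, was the other one called (higher, 0.20, adjusted p = 0.00889), and 9 were not called.

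Zbtb16 encodes PLZF, a zinc finger repressor that glucocorticoids are known to induce (chr9:48654297-48836222, minus strand). FIP values were 7.97, 7.83, 7.74, 7.88 and 7.78 in the control libraries and 8.15, 8.24, 8.13, 8.31 and 8.27 in the transgenic libraries. APC values were 8.30, 8.29, 8.11, 8.21 and 8.0 in the control libraries and 8.58, 8.63, 8.41, 8.66 and 8.82 in the transgenic libraries. The genotypes did not overlap in either population, and transgenic APC library 5 was the highest of all. On average transgenic cells differed by 0.41 ± 0.05 (SE, adjusted p = 2.51e-04), with 0.38 in FIPs and 0.44 in APCs. Of 24 tested glucocorticoid targets 4 rose (Zbtb16, Fkbp5, Map3k6 and Cdkn1a) and 2 fell (Plin4 and Nr3c1), and the list's median was 0.004 against -0.008 over all tested genes. Fkbp5, a co-chaperone of steroid receptors, differed by 0.32 (adjusted p = 0.00537) with overlapping genotypes, and Nr3c1, the glucocorticoid receptor, by -0.13 (adjusted p = 0.00719); the Nr3c1 call was lost with median centring (adjusted p = 0.0926).

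Bmp4, a secreted growth factor that favours fat cell commitment, rose on average (chr14:46383520-46390669, minus strand). Its FIP values were 3.64, 3.63, 3.75, 3.59 and 3.24 in the control libraries and 4.16, 3.94, 4.25, 4.46 and 4.37 in the transgenic libraries. Its APC values were 4.92, 5.38, 5.48, 5.46 and 5.10 in the control libraries and 5.51, 5.76, 5.92, 6.01 and 6.14 in the transgenic libraries. All transgenic libraries exceeded the controls of their population, although transgenic APC library 1 (5.51) cleared the highest control (5.48) narrowly. The mean of both differences was 0.63 ± 0.09 (SE, adjusted p = 0.0017), a 1.55-fold level, and it was called with pool means (adjusted p = 0.0442) but not with the macrophage (0.0747) or erythroid covariate (0.112). Of 31 tested genes of the BMP list, Fstl3, a binder of activins, was the other call (0.28, adjusted p = 0.0498); 29 were not called and the list's median was 0.05. In the TGF-beta list 2 of 23 rose, the inhibitory Smad7 at 0.26 (adjusted p = 0.00876) and the ligand Tgfb3 at 0.17 (adjusted p = 0.0283). Called shares were 6.45% of the BMP list and 8.70% of the TGF-beta list, against 5.14% of all tested genes.

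Epha2, a receptor for ephrin ligands on neighbouring cells (chr4:141301240-141329384, plus strand), was higher on average, with the larger difference in FIPs. FIP values were 2.88, 3.32, 3.0, 3.03 and 2.67 in the control libraries and 3.96, 3.98, 3.90, 3.88 and 3.57 in the transgenic libraries. APC values were 3.73, 3.85, 3.93, 3.73 and 3.82 in the control libraries and 4.26, 4.38, 4.09, 4.40 and 3.85 in the transgenic libraries. The FIP genotypes stood apart, while in APCs transgenic library 5 (3.85) fell within the control range. The averaged difference was 0.63 ± 0.08 (SE, adjusted p = 8.38e-04), with 0.88 in FIPs and 0.38 in APCs; the difference between the populations had an interaction adjusted p of 0.241.

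**Figure D1:**
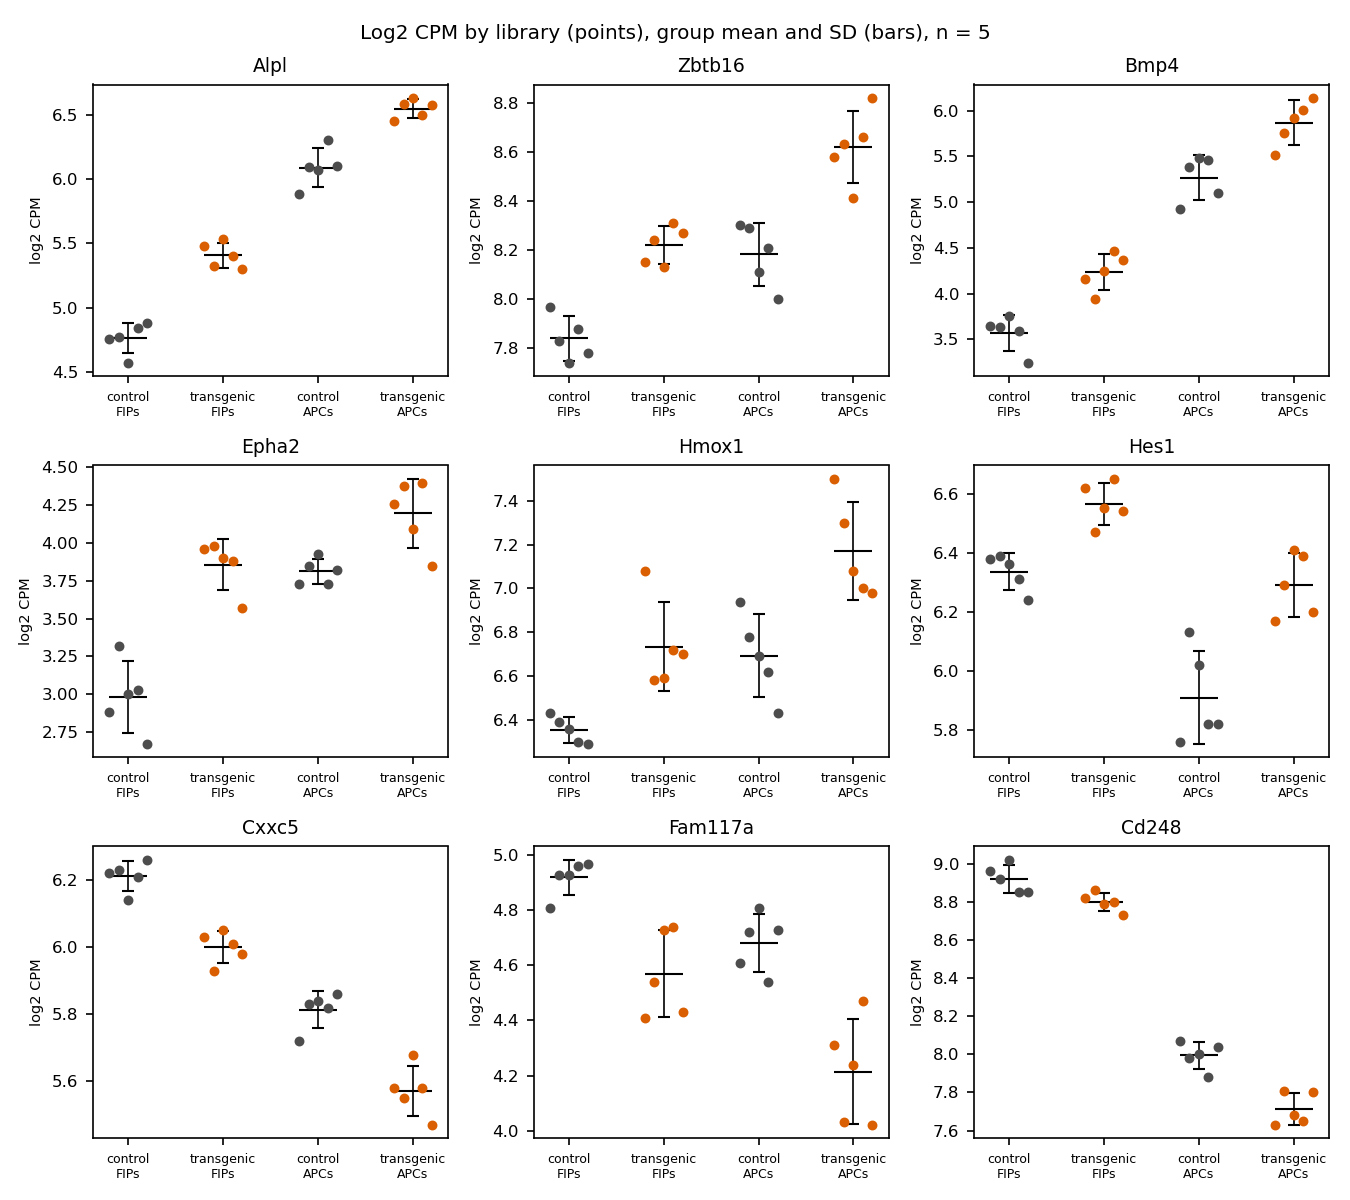
Log2 CPM (y axes) of 9 named genes in the 4 groups of 5 libraries; points are libraries and bars the group mean and SD. Alpl, Zbtb16, Bmp4, Hmox1, Hes1, Cxxc5 and Fam117a separate by genotype in FIPs and in APCs, Epha2 overlaps in APCs and Cd248 in FIPs.

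Hes1, a transcriptional repressor induced by Notch signalling, rose without overlap. FIP values were 6.38, 6.39, 6.36, 6.31 and 6.24 in the control libraries and 6.62, 6.47, 6.55, 6.65 and 6.54 in the transgenic libraries. APC values were 5.76, 6.13, 6.02, 5.82 and 5.82 in the control libraries and 6.17, 6.29, 6.41, 6.39 and 6.20 in the transgenic libraries. All 10 transgenic libraries were above the controls of their population; the closest were 6.47 against 6.39 in FIPs and 6.17 against 6.13 in APCs. Averaged over both populations, it differed by 0.31 ± 0.05 (SE, adjusted p = 0.002). Among 26 tested Notch genes 4 were higher (Hes1, the ligands Dll1 and Dll4, and the receptor Notch4) and 3 lower (the receptor Notch2, the ligand Jag1 and Dtx2, a ubiquitin ligase), with a list median of 0.02. The Notch2 call was lost with median centring (adjusted p = 0.163), and of the 7 calls 4 were made with the pool as a random effect and 1 with pool means. Dll4 and Notch4, which are also known from blood vessel cells, differed by 0.72 in FIPs and 0.10 in APCs and by 0.43 in FIPs and 0.26 in APCs. The endothelial list summed to 1330 to 1610 CPM in control FIPs and 1420 to 1760 in transgenic FIPs, 1440 to 1730 in control APCs and 1320 to 1610 in transgenic APCs, and 0 of its 21 tested genes were called by limma (1 higher and 1 lower at an unadjusted p under 0.05; 0 with pool means). Its median differences had opposite signs, 0.32 in FIPs and -0.20 in APCs, so that the average over both is near 0. Its part in the Dll4 and Notch4 values was not tested.

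Hmox1, the heme oxygenase that breaks down heme, rose without overlap. It had FIP values of 6.43, 6.39, 6.36, 6.30 and 6.29 in the control libraries and 7.08, 6.58, 6.59, 6.72 and 6.70 in the transgenic libraries. Its APC values were 6.94, 6.78, 6.69, 6.62 and 6.43 in the control libraries and 7.50, 7.30, 7.08, 7.0 and 6.98 in the transgenic libraries. The genotypes did not overlap in either population, and library 1 was the highest of its group in all 4 groups. On average transgenic cells differed by 0.43 ± 0.07 (SE, adjusted p = 0.00419). Gclc, which catalyses the limiting step of glutathione synthesis, differed by 0.36 ± 0.06 (SE, adjusted p = 0.00347), also with no overlap in either population. Neither was called with pool means (adjusted p = 0.0549 and 0.0595).

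Further higher genes that did not overlap in either population were Mir17hg, host transcript of a microRNA cluster that promotes proliferation (0.50, adjusted p = 0.00378), and Gabpb1, a subunit of an ETS-family transcription factor (0.48, adjusted p = 0.0124). Fanci, of the Fanconi anaemia DNA repair pathway, differed by 0.45 (adjusted p = 0.00781). Its exons overlap those of Polg in the annotation. Exons of other named genes, among them Gabpb1, Csf1r, Cxcl16, Fosl1, Myd88, Fdft1, Slc20a1, Icam1 and Notch2, also overlap another tested gene. Trim24, a co-regulator of nuclear receptors, differed by 0.31 (adjusted p = 4.78e-04), and Klhl21, an adaptor of a ubiquitin ligase, by 0.33 (adjusted p = 8.86e-04). Fbln1, a matrix glycoprotein, differed by 0.24 (adjusted p = 0.00539) with 0.23 in FIPs and 0.24 in APCs. Trim24 and Klhl21 were among the calls with pool means and with the macrophage covariate, and Gabpb1 was lowest in control APC library 5 (5.34, the others 6.09 to 6.21).

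NF-kB targets gave 7 higher calls and 0 lower out of 39 tested (2.47% and 2.67% of all tested genes), with a median difference of 0.07. Averaged differences of the list ran from -0.74 to 0.44, with 31 above 0 and 8 below. At a limma unadjusted p under 0.05, 12 were higher and 3 lower. The 7 were Birc3, an inhibitor of apoptosis, the adhesion molecules Icam1 and Vcam1, the stress-induced Gadd45b and Ier3, the prostaglandin synthase Ptgs2, and Nfkb1 itself. Birc3 measured, in FIPs, 7.86, 7.74, 7.66, 7.69 and 7.34 in the control libraries and 7.92, 7.94, 7.98, 8.09 and 7.90 in the transgenic libraries. Its APC values were 8.28, 8.33, 8.16, 8.25 and 7.76 in the control libraries and 8.46, 8.51, 8.44, 8.38 and 8.61 in the transgenic libraries. The genotypes did not overlap, and library 5 was the lowest control of both populations. The averaged difference of Birc3 was 0.32 ± 0.07 (SE, adjusted p = 0.0106), that of Icam1 0.24 (adjusted p = 0.00798), that of Vcam1 0.18 (adjusted p = 0.00915) and that of Gadd45b 0.16 (adjusted p = 0.00806). None of the 7 was called with pool means, and 5 were with the pool as a random effect. Secreted signals were called less uniformly. Of 39 tested chemokines and cytokines, Cxcl16 rose (0.22, adjusted p = 0.00806). Ccl6 (-0.70, adjusted p = 0.0118) and Ccl9 (-0.45, adjusted p = 0.0254), both known from myeloid cells, fell. The called share of this list was 7.69%, against 5.14% of all tested genes.

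The bases upstream of a pair of these genes are shown for contrast: Birc3, the one that did not overlap in either population, and Ier3, the one with a match to the NF-kB consensus, shown in capitals. Both runs are the 250 bases before the RefSeq start, read 5′ to 3′ on the gene's strand.
Birc3, chr9:7873171-7873420, minus strand: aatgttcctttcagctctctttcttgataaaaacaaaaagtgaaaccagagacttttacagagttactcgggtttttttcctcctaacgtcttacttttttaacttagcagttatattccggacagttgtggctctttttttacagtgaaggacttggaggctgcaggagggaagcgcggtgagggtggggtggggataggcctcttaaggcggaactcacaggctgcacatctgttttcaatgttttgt
Ier3, chr17:35821463-35821712, plus strand: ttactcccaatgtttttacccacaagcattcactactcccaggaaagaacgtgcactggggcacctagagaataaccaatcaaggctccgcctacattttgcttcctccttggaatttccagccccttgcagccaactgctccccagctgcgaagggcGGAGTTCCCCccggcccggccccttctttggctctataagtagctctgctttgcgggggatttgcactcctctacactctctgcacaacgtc
On either strand the consensus stood in 1 of the 5 called targets with a single RefSeq start (Birc3, Gadd45b, Icam1, Ier3 and Ptgs2; GRCm38.p6), and in 17 of 27 promoters of the whole target list. It stood in 19.9% of 9345 tested genes' promoters, 21.2% of 245 called higher and 21.9% of 278 called lower. The EBF palindrome, the other motif searched, stood in 0.931%, 0 of 245 and 5 of 278 (1.80%). Only exact matches to each pattern were counted. The bases just after the start were found in an annotated transcript of the same gene for 4 of the 5 promoters. The Birc3 and Ier3 runs reach slightly into the genes as GENCODE places them (Birc3 to 7873186, Ier3 from 35821684). A match is only a description of these letters, and the data hold no binding measurement.

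Protein folding genes gave 6 higher calls and 0 lower out of 31 tested (19.4% called, against 5.14% of all tested genes), with a median of 0.08. Hspa8, the constitutive HSP70 chaperone, differed by 0.20 ± 0.03 (SE, adjusted p = 0.00296), and Hsp90aa1 by 0.13 (adjusted p = 0.0257). Dnajb9, an endoplasmic reticulum co-chaperone, differed by 0.17 (adjusted p = 0.0103) and Atf4, a transcription factor of the stress response, by 0.13 (adjusted p = 0.0249); the Atf4 call was lost with median centring (adjusted p = 0.0596). Dnaja1 and Ddit3 were the remaining calls. Immediate-early genes gave 4 higher and 0 lower of 28 (14.3%). These were the orphan nuclear receptors Nr4a3, with the smallest adjusted p of the list at 0.40 (adjusted p = 0.00798), and Nr4a2 (0.43, adjusted p = 0.0246), with Fosl1 and Ier3. Nr4a2 differed by 0.71 in FIPs and 0.15 in APCs, and Ier3 by 0.05 in FIPs and 0.22 in APCs. Nr4a3 differed by 0.53 in FIPs and 0.28 in APCs, and Fosl1 by 0.31 in FIPs and 0.36 in APCs. With the pool as a random effect 4 of the 6 folding genes and 3 of the 4 immediate-early genes were called, and with pool means 0 of either. Immediate-early genes are also known to respond to tissue dissociation, whose part here was not tested; control APC library 5 was the lowest for Nr4a3 (6.83, the others 7.25 to 7.41).

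Collagen and crosslinking genes gave 5 higher and 0 lower of 29, with a median of 0. Col11a1, a fibril collagen subunit, had the largest averaged difference of the list. FIP values were 0.90, 1.77, 0.24, 1.13 and 1.22 in the control libraries and 2.79, 1.82, 2.22, 3.01 and 3.42 in the transgenic libraries. In APCs it was listed at 0 in 4 control and 4 transgenic libraries, with 0.03 and 0.38 in the other two. The averaged difference of 0.83 (adjusted p = 0.0133) thus holds an APC term near 0, and in FIPs the genotypes did not overlap. The call was lost with log2(CPM + 1) (adjusted p = 0.0709) and log2(CPM + 0.1) (0.402). The others were the crosslinking enzymes Lox (0.13, adjusted p = 0.0307) and Loxl4 (0.19, adjusted p = 0.0375) and the prolyl hydroxylase subunits P4ha1 (0.13, adjusted p = 0.0219) and P4ha3. With the pool as a random effect 2 of the 5 were called, Lox (0.0512) and Loxl4 (0.0535) among those lost, and with pool means 0. The basement membrane chains Col4a3 (0.54, adjusted p = 0.0161) and Col4a4 (0.46, adjusted p = 0.0242) rose on average. Both overlapped in FIPs, and Col4a3 also in APCs. Of that list's 23 genes 21 were not called, so 8.70% were, against 5.14% of all tested genes.

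Igfbp3, a carrier of insulin-like growth factors, was called on average although its differences had opposite signs. FIP values were 5.96, 6.19, 5.73, 6.09 and 6.11 in the control libraries and 7.03, 6.92, 6.88, 7.43 and 7.75 in the transgenic libraries. APC values were 5.22, 4.86, 4.86, 4.57 and 4.86 in the control libraries and 5.03, 4.86, 4.49, 4.67 and 4.75 in the transgenic libraries. The FIP genotypes stood apart and the APC genotypes overlapped. Differences were 1.19 in FIPs and -0.11 in APCs, with an averaged adjusted p of 0.00798 and an interaction adjusted p of 0.0669. It is 1 of the 22 calls that were not of like sign in both populations, 8 of them because 1 difference was exactly 0.

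Among the lower genes without overlap, Cxxc5, a zinc finger protein that restrains Wnt signalling, had the smallest adjusted p. FIP values were 6.22, 6.23, 6.14, 6.21 and 6.26 in the control libraries and 6.03, 5.93, 6.05, 6.01 and 5.98 in the transgenic libraries. APC values were 5.72, 5.83, 5.84, 5.82 and 5.86 in the control libraries and 5.58, 5.55, 5.68, 5.58 and 5.47 in the transgenic libraries. Every transgenic library was below every control of its population, the closest being transgenic APC library 3 (5.68) and control APC library 1 (5.72). The mean of both differences was -0.23 ± 0.03 (SE, adjusted p = 4.78e-04), a 0.854-fold level, also called with pool means (0.0344) and the macrophage covariate (0.0493). Fam117a measured 4.81, 4.93, 4.93, 4.96 and 4.97 in the control libraries and 4.41, 4.54, 4.73, 4.74 and 4.43 in the transgenic libraries of FIPs. In APCs it measured 4.61, 4.72, 4.81, 4.54 and 4.73 in the control libraries and 4.31, 4.03, 4.24, 4.47 and 4.02 in the transgenic libraries. No libraries overlapped, and the averaged difference was -0.41 ± 0.06 (SE, adjusted p = 0.00209). Ppp1r9b, a scaffold that directs protein phosphatase to actin, differed by -0.13 (adjusted p = 0.00537). Ptprj, a receptor tyrosine phosphatase, differed by -0.30 (adjusted p = 0.00244) and Fem1a, a substrate adaptor of a ubiquitin ligase, by -0.25 (adjusted p = 0.0017), each with overlap in 1 population.

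Genes of interstitial progenitors, the stem-like fibroblasts of fat that FIPs resemble, gave 8 lower calls and 0 higher of 19 tested, with medians of -0.17 in FIPs and -0.41 in APCs. This list was chosen with earlier results of these libraries known, and Ly6c1 belongs to the sorting gate. Cd248, a surface glycoprotein of stromal cells, had FIP values of 8.96, 8.92, 9.02, 8.85 and 8.85 in the control libraries and 8.82, 8.86, 8.79, 8.80 and 8.73 in the transgenic libraries. Its APC values were 8.07, 7.98, 8.0, 7.88 and 8.04 in the control libraries and 7.63, 7.81, 7.68, 7.65 and 7.80 in the transgenic libraries. The APC genotypes did not overlap, and in FIPs transgenic library 2 (8.86) exceeded the lowest controls (8.85). The averaged difference was -0.20 ± 0.03 (SE, adjusted p = 0.00244), a 0.871-fold level. Cd55, which shields cells from complement, differed by -0.21 (adjusted p = 0.00798) and its neighbouring copy Cd55b by -0.36 (adjusted p = 0.00797); reads of such near-identical copies may be split between them, and the Cd55 call was lost with median centring (0.0793).

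Of the 6 gate genes, Ly6c1, Ly6c2 and Cd9 fell on average and 3 were not called. Ly6c1 differed by -0.10 in FIPs and -0.53 in APCs and Ly6c2 by -0.12 in FIPs and -0.53 in APCs, with averaged adjusted p-values of 0.00244 and 0.00537. Cd9 differed by 0.02 in FIPs and -0.65 in APCs, with an averaged adjusted p of 0.00806; in APCs all transgenic values (4.12 to 4.81) lay below all control values (4.83 to 5.15). Pdgfrb differed by 0.03 (adjusted p = 0.719), Pecam1 by 0.06 (adjusted p = 0.763), with opposite signs of 0.39 in FIPs and -0.27 in APCs (interaction adjusted p = 0.185), and Ptprc by -0.61 (adjusted p = 0.0592). Sfrp4, a secreted Wnt inhibitor far higher in FIPs than in APCs, was lower in transgenic cells. In FIPs it measured 7.60, 7.66, 7.73, 7.68 and 7.86 in the control libraries and 7.51, 7.45, 7.49, 7.40 and 7.42 in the transgenic libraries. The APC libraries gave 3.38, 3.61, 3.99, 3.64 and 4.06 in the control libraries and 3.45, 2.92, 2.94, 2.63 and 2.83 in the transgenic libraries. Transgenic FIPs were all below control FIPs, and in APCs transgenic library 1 (3.45) overlapped the controls. Averaged over both populations, it differed by -0.52 ± 0.09 (SE, adjusted p = 0.00395). Of 38 tested Wnt genes, the receptors Fzd5 (0.33, adjusted p = 0.00278) and Ror2 (0.19, adjusted p = 0.0472) rose. The inhibitors Sfrp4 and Dact1 (-0.17, adjusted p = 0.00573) fell. The called share of the Wnt list was 10.5%, against 5.14% of all tested genes. At a limma unadjusted p under 0.05, 7 of the list were higher and 8 lower. The Dact1 call was lost with median centring (0.0686). The Ror2 call was lost with the pool as a random effect (0.0848) and in 15 of the 20 fits that left out 1 library.

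**Figure D2:**
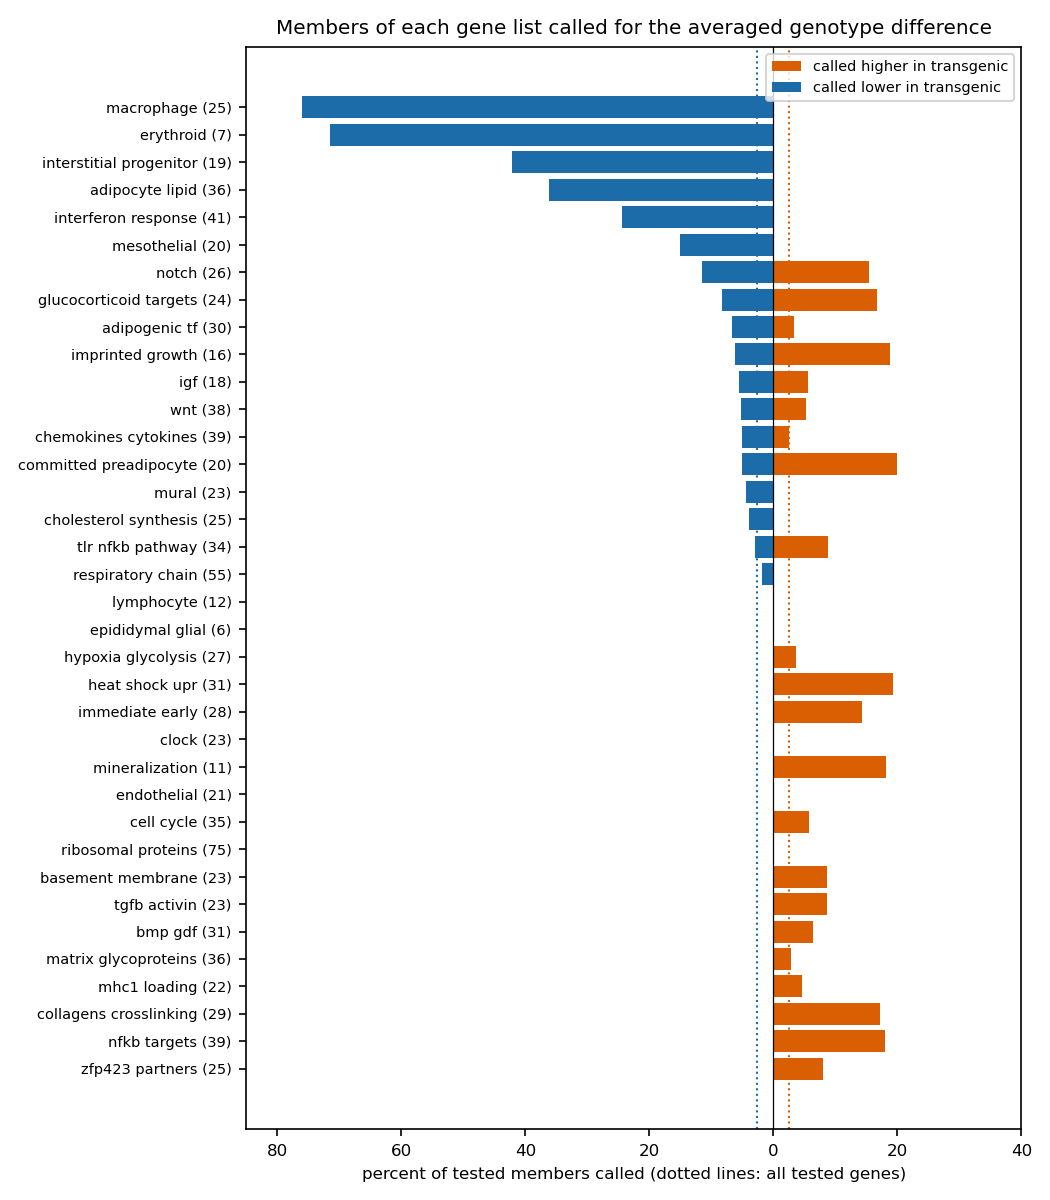
Percent of the tested members of 36 gene lists (number tested in brackets) that were called higher (orange, right) or lower (blue, left) for the averaged difference; dotted lines mark all tested genes, 2.47% and 2.67%. Macrophage, erythroid, interstitial progenitor and adipocyte lipid lists have the longest bars to the left, and bars to the right stay at 20% or less.

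Macrophage genes gave 19 lower calls and 0 higher of 25, all 25 below 0 in both populations, with medians of -0.49 in FIPs and -0.76 in APCs. No member was at 0 in every library. Adgre1 (F4/80, a defining macrophage receptor) measured, in FIPs, 3.92, 4.88, 4.43, 4.09 and 4.15 in the control libraries and 3.69, 3.75, 4.15, 3.35 and 2.87 in the transgenic libraries. Its APC values were 4.07, 5.06, 4.95, 4.36 and 4.59 in the control libraries and 3.74, 3.41, 4.06, 3.75 and 3.08 in the transgenic libraries. The FIP genotypes overlapped, while in APCs the highest transgenic value (4.06) lay just under the lowest control (4.07). On average transgenic cells differed by -0.86 ± 0.17 (SE, adjusted p = 0.00798), and the averaged differences of Csf1r, the receptor for colony-stimulating factor, and Trem2, a lipid-sensing receptor, were -0.69 (adjusted p = 0.00798) and -1.05 (adjusted p = 0.0145). With pool means 0 of the 25 were called by limma, and with the pool as a random effect 16. The sort excluded CD45+ cells, and in bulk RNA fewer cells of a type and less RNA per cell cannot be told apart.

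Lipid storage genes of adipocytes gave 13 lower calls and 0 higher of 36, all 36 below 0 on average and 34 below 0 in both populations. The medians were -0.15 in FIPs and -0.53 in APCs. Adipoq, the adipocyte hormone adiponectin, measured 6.80, 6.92, 6.88, 6.93 and 6.89 in the control libraries and 6.90, 6.76, 6.77, 6.32 and 6.26 in the transgenic libraries of FIPs. In APCs it measured 7.17, 7.20, 7.36, 7.34 and 7.57 in the control libraries and 7.37, 6.75, 6.86, 6.85 and 6.68 in the transgenic libraries. The genotypes overlapped in each population, in APCs through transgenic library 1 (7.37, the others 6.68 to 6.86). The mean of both differences was -0.35 ± 0.09 (SE, adjusted p = 0.0251), and those of Lep, Retn and Mogat1, the last a lipid-synthesis enzyme, were -0.64 (adjusted p = 0.03), -0.40 (adjusted p = 0.0297) and -0.86 (adjusted p = 0.0324). The list summed to 7270 to 7800 CPM in control FIPs, 5840 to 8060 in transgenic FIPs, 9330 to 13100 in control APCs and 7300 to 10600 in transgenic APCs. Without the APC libraries numbered 1, which lie towards each other's genotype, 32 of 36 were called. With pool means 0 were, and with the pool as a random effect 1. Of 30 tested regulators of fat cell formation Zbtb16 rose and Nr3c1 and Prdm16 (-0.37, adjusted p = 0.0479) fell, and Pparg was not among the calls. Prdm16 differed by -0.19 in FIPs and -0.55 in APCs. Its call was lost with the pool as a random effect (adjusted p = 0.079) and with pool means (0.142). It was also lost in 14 of the 20 fits that left out 1 library.

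**Figure D3:**
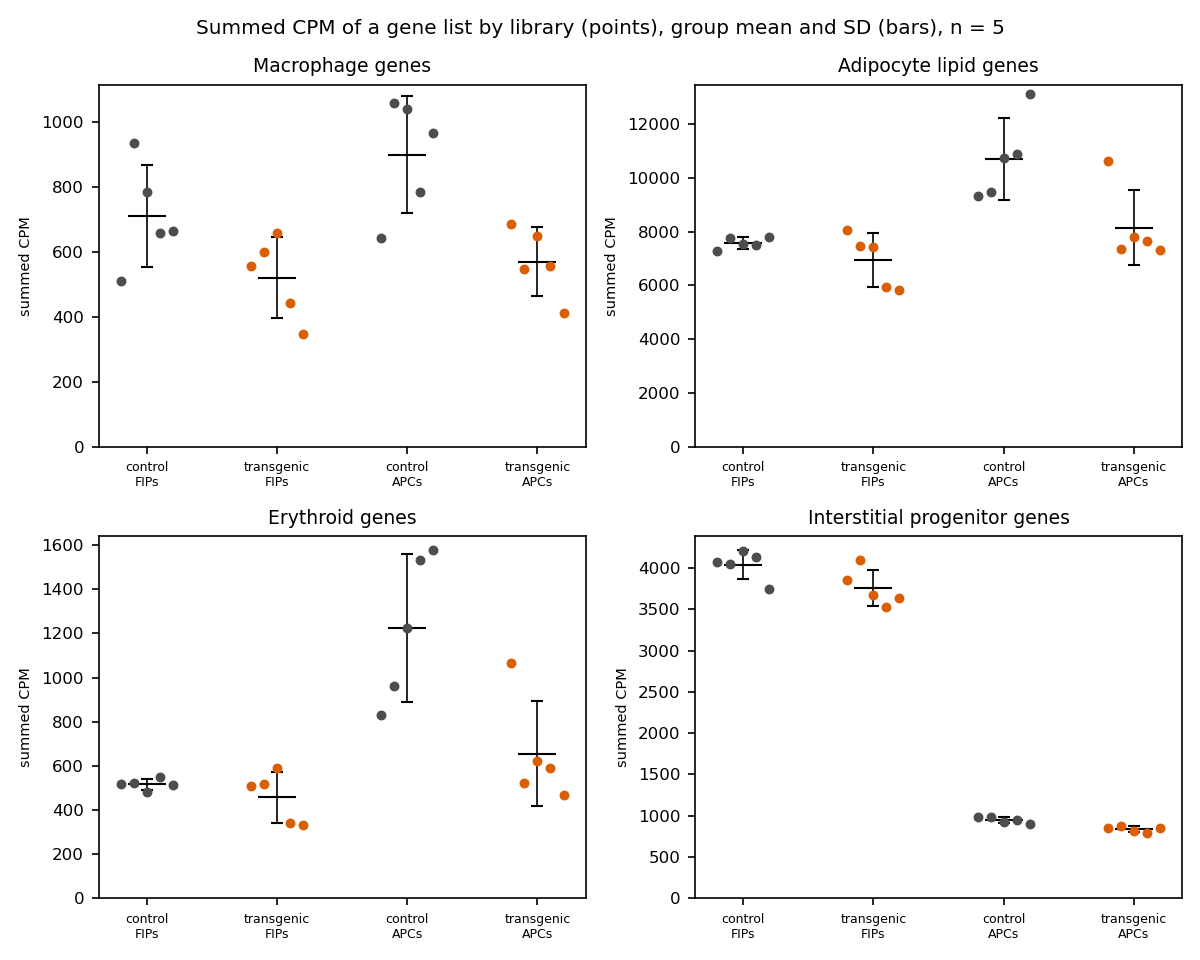
Summed CPM (y axes, from 0) of the macrophage, adipocyte lipid, erythroid and interstitial progenitor lists by library (points), with group mean and SD over 5 libraries. Transgenic APC library 1 is the highest of its group in the adipocyte lipid (10600) and erythroid (1070) panels, at the level of control APCs.

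Erythroid genes gave 5 lower calls and 0 higher of 7, among them Hba-a1, a haemoglobin chain, with -0.25 in FIPs and -0.97 in APCs. Its averaged difference was -0.61 ± 0.15 (SE, adjusted p = 0.0263); the 2 alpha-globin copies are near identical and their counts may be shared. Mesothelial genes, of the lining of the fat pad, gave 3 lower calls of 20: Krt8 (-0.72, adjusted p = 0.0334), Lrrn4 (-0.62, adjusted p = 0.0384) and Igfbp5 (-0.52, adjusted p = 0.0109), the last also made by fibroblasts. With the pool as a random effect 3 erythroid and 1 mesothelial call were made, and with pool means 0 of either. Of 12 lymphocyte and 6 epididymal or glial genes tested, limma called 0 (3 lower in each at an unadjusted p under 0.05; 0 with pool means). The part of these cell types in the lower calls was not tested.

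Interferon-response genes gave 10 lower calls and 0 higher of 41, with medians of -0.42 in FIPs and 0.02 in APCs. With the pool as a random effect 5 of the 10 were called, and with pool means 1. Oas3, which senses double-stranded RNA, measured, in FIPs, 3.18, 4.29, 4.19, 4.34 and 4.38 in the control libraries and 2.02, 1.88, 2.02, 1.79 and 3.40 in the transgenic libraries. The APC libraries gave 0.24, 0, 0.46, 0.49 and 1.39 in the control libraries and 0.38, 0, 0.18, 0.26 and 0 in the transgenic libraries. Transgenic FIP library 5 (3.40) was far above its group and above the lowest control (3.18), and the APC genotypes overlapped near the detection limit. The averaged difference was -1.10 ± 0.21 (SE, adjusted p = 0.00781), with -1.85 in FIPs and -0.35 in APCs. Ifi44 and Ifit3 followed the same pattern, at -1.64 in FIPs and -0.35 in APCs and at -1.31 in FIPs and -0.15 in APCs; interaction adjusted p-values were 0.163, 0.237 and 0.185.

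Ribosomal protein genes (75 tested) and clock genes (23) had 0 calls by limma (0 ribosomal, and 3 higher and 4 lower clock genes, at an unadjusted p under 0.05; 0 with pool means), and medians of 0.008 and -0.03. Of 25 known partners of Zfp423, Smad1 (0.15, adjusted p = 0.0381) and the deacetylase Hdac1 (0.12, adjusted p = 0.0228) rose, against 2.47% of all tested genes. The Smad1 call was lost with median centring (0.0562) and with the pool as a random effect (0.0563), and in 14 of the 20 fits that left out 1 library. Of 55 respiratory chain genes 1 fell (Sdha), although 54 lay below 0 on average. The list's median was 0 in FIPs and -0.17 in APCs, and 25 of its genes lay below 0 in both populations. Imprinted growth genes gave 3 higher (Cdkn1c, Zim1 and Peg10) and 1 lower (Nnat) of 16, Peg10 being called with pool means (0.0456). The list named for committed preadipocytes gave 4 higher of 20 (Icam1, Vcam1, Fmo2 and F3) and 1 lower (Apoe), with a median of 0.007. F3, tissue factor, differed by 0.27 (adjusted p = 0.00781), with 0.41 in FIPs and 0.12 in APCs. Whether F3 and Fmo2 mark committed preadipocytes among these cells was not tested. Over all tested genes 5.14% were called. Mural genes gave 1 lower of 23 (Aoc3, 4.35%), cholesterol synthesis 1 lower of 25 (Fdft1, 4%) and cell cycle 2 higher of 35 (Pcna and Ccne1, 5.71%). Hypoxia and glycolysis gave 1 higher of 27 (Adm, 3.70%), and class I antigen presentation 1 higher of 22 (H2-M3, 4.55%). Matrix glycoproteins gave 1 higher of 36 (Fbln1, 2.78%). These shares lie near or below that of all tested genes. IGF genes gave 1 in each direction of 18 (11.1%). The Toll-like receptor pathway gave 3 higher of 34 (Lbp, Myd88 and Nfkb1) and 1 lower (Tlr7), 11.8% in all. With the pool as a random effect, 2 of the Toll-like receptor calls and 2 of the imprinted calls were made, and neither Sdha nor Fdft1 was called.

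The 896 genes were spread over the genome, from 4% of tested genes on chromosome 4 to 7% on chromosome 19. Median exonic length was 4168 bases for called-higher, 4551 for called-lower and 3813 for all tested genes, and median GC content 49.75%, 50.46% and 49.99%. Protein-coding genes made up 393 of the higher and 446 of the lower calls. Processed pseudogenes gave 17 higher calls (1.24% of 1373) and 2 lower (0.146%).

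**Figure D4:**
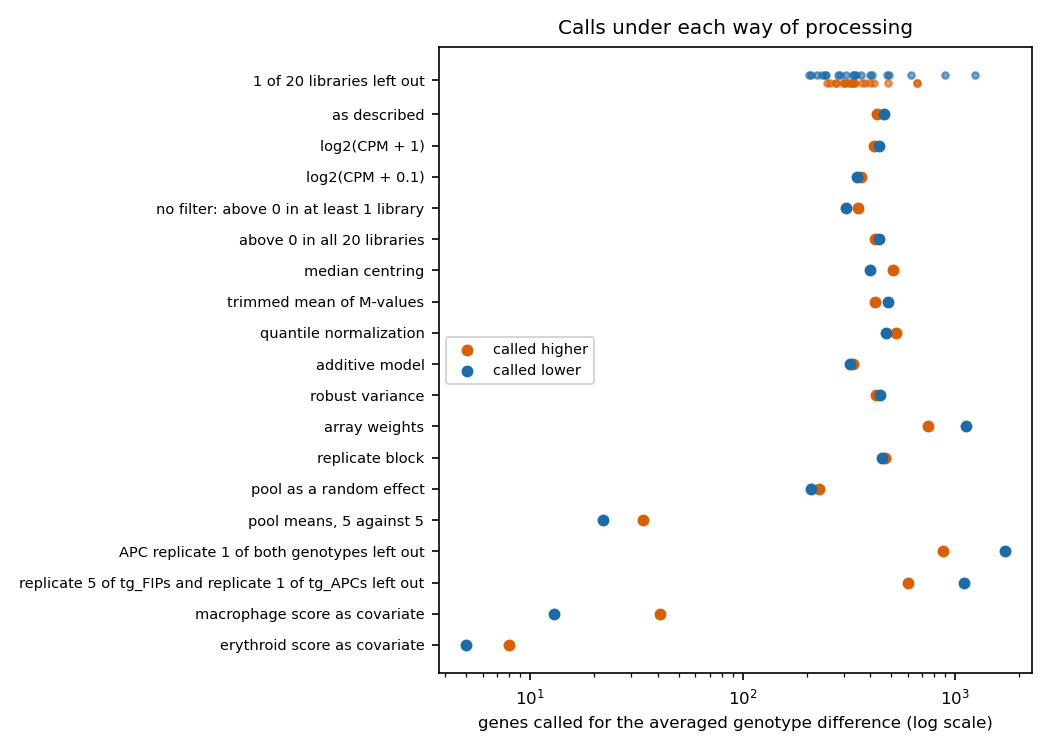
Number of genes called higher (orange) and lower (blue) for the averaged difference (x axis, log scale) under each way of processing (y axis); the top row shows 20 fits with 1 library left out. Pool means (56 in all) and the covariate fits (54 and 13) lie furthest to the left, and omission of both APC libraries numbered 1 (2594) furthest to the right.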

How the data were processed

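RNA sequencing values came from 1 deposited table of log2 CPM, rounded to 2 decimals, in which a gene at or under 1 CPM reads 0; per the submitters' processing notes the authors used Trim Galore 0.4.1, HISAT2 2.0.1 (GRCm38), featureCounts 1.4.6 and DESeq2 1.6.3. Neither annotation release nor strand setting is given there, and the library kit does not mark strand. Whole reads could not be recovered from the values, so no count test was run. Depth was estimated from the spacing of low values. The search was limited to a preset range, since a multiple of the depth also matches. At the estimate, 71.4% to 80.3% of a library's low values matched the spacing, so the depth is approximate.

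Genes above 0 in at least 5 libraries were fitted with limma 3.58.1 in R 4.3.3 (4 group means, variance trend, 16 residual degrees of freedom). The contrast was the mean of the FIP and APC genotype differences, with Benjamini-Hochberg adjustment over 17435 genes at 0.05. Each library counted as independent, so p-values of this fit measure the spread between libraries within a group. FIP and APC libraries draw on the same mice, and this fit takes no account of that. The script was tested on simulated data. Exact permutation was run in R, and figures used matplotlib 3.10.9. Genes were named by rule: Zfp423 and the gate; the 12 largest non-overlapping calls per direction; the 6 smallest adjusted p per direction, both with a mean of at least 2 log2 CPM; and up to 4 called members per list. Predicted genes, clone names and annotated pseudogenes were not named, and genes of list counts beyond the rule (for example Ptgs2, Dll1, Jag1) were chosen after their values were seen. The members and the 37 lists were chosen with earlier results of these data known. Gene positions are from GENCODE M21 and promoters from RefSeq.

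Libraries of one number were checked for pairing. Residual correlations of FIP and APC libraries of a genotype were 0.04 to 0.33, and 5 of 10 FIP libraries correlated best with their own number. Those of transgenic and control libraries were -0.32 to 0.15, so the numbers were not taken as pairs of genotypes. Alternatives covered pseudocount, filter, scaling, model, pooling and omitted libraries; the macrophage and erythroid covariates were added after seeing the data.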

Additional observations from a re-analysis of the deposited data

Results flagged for a closer look

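Among 452 groups of 5 values examined (named genes and list sums), 40 held a library whose gap to the nearest other, as a share of the group's range, passed Dixon's critical value of 0.71. Chance flags about 1 in 20 groups, and genes of one library are not independent. The values below are log2 CPM, with the range of the other 4 libraries in brackets, and no explanation was tested.

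Transgenic APC library 1 stood apart for Adipoq 7.37 (6.68 to 6.86), Col11a1 0.38 (0), Hbb-bs 7.85 (6.74 to 7.06), Ifit3 4.94 (4.28 to 4.47), Igfbp5 7.30 (6.28 to 6.36), Pdgfrb 9.24 (9.45 to 9.51), Retn 6.18 (5.51 to 5.64) and Sdha 7.95 (7.68 to 7.74). Transgenic APC library 2 stood apart for Hsp90aa1 8.72 (8.56 to 8.59). Transgenic APC library 4 stood apart for Cd55b 1.49 (1.95 to 2.10), Cxcl16 6.03 (6.14 to 6.17) and Klhl21 6.10 (5.72 to 5.83). Transgenic APC library 5 stood apart for Cd55 6.31 (6.08 to 6.12). Transgenic APC library 1 also held the highest sums of its group for the lymphocyte list (70.7 CPM, the others 25.7 to 33.6), the erythroid list (1070, the others 469 to 623) and the adipocyte lipid list (10600, the others 7300 to 7790). Its values for Adipoq, Retn, Hbb-bs and Igfbp5 lay at the level of the control APC libraries.

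Control APC library 1 stood apart for Cxxc5 5.72 (5.82 to 5.86). Control APC library 4 stood apart for Col11a1 0.03 (0). Control APC library 5 stood apart for Gabpb1 5.34 (6.09 to 6.21) and Nr4a3 6.83 (7.25 to 7.41).

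Transgenic FIP library 1 stood apart for Hmox1 7.08 (6.58 to 6.72). Transgenic FIP library 2 stood apart for Fmo2 6.98 (7.27 to 7.35). Transgenic FIP library 4 stood apart for Lbp 7.68 (7.54 to 7.57). Transgenic FIP library 5 stood apart for Epha2 3.57 (3.88 to 3.98), Ifit3 7.14 (5.30 to 5.73) and Oas3 3.40 (1.79 to 2.02).

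Control FIP library 1 stood apart for Fam117a 4.81 (4.93 to 4.97), Ifi44 4.84 (5.56 to 5.62), Ifit3 6.71 (7.22 to 7.34), Igtp 5.19 (5.47 to 5.58), Oas3 3.18 (4.19 to 4.38) and Prdm16 2.59 (2.80 to 2.88). Control FIP library 3 stood apart for Slc20a1 5.92 (6.16 to 6.23). Control FIP library 4 stood apart for Cd55b 5.82 (5.64 to 5.68), Igfbp5 8.93 (8.77 to 8.81) and Limch1 7.80 (7.58 to 7.63). Control FIP library 5 stood apart for Fbln1 7.95 (8.11 to 8.16), Icam1 7.69 (7.90 to 7.98), Myd88 6.75 (6.88 to 6.91) and Peg10 5.08 (4.89 to 4.93).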

How the results depend on the processing

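Pseudocount, filter, scaling, additive model and robust variance gave 651 to 997 calls against 896, and none of these moved the count by over 1.5 times. With a replicate block (the number as pairing of genotypes) 921 genes were called, 774 of them among the 896. Array weights gave 1876 calls (1764 of like sign, 66 with an interaction, 208 list members against 128). The pool as a random effect gave 439, 435, 9 and 80, and pool means 56, 54 and 12 with no interaction fit. With 1 library left out, calls ranged from 460 (without transgenic FIP library 4) to 1902 (without transgenic APC library 1) and were 1559 without control APC library 1; genes of like sign ranged from 450 to 1750, interactions from 0 to 150 and list members from 70 to 212. With both libraries of 1 number and genotype left out, these were 291 to 1802, 285 to 1713, 0 to 41 and 48 to 210. Without both APC libraries numbered 1 they were 2594, 2309, 515 and 260, and without transgenic FIP library 5 and transgenic APC library 1 they were 1698, 1553, 203 and 208. The macrophage covariate gave 54 calls, 54 of like sign and 18 list members, and the erythroid covariate 13, 13 and 4. Log2(CPM + 1) and quantile normalization gave 1 interaction each against 0. Interactions here are counted only among genes also called for the averaged difference. Stricter definitions of like sign gave 421, 31 and 9 genes, as reported. Of 100 named calls, 69 were called with each 1 of the 20 libraries left out and 88 with median centring. The others lost the call in at least 1 of the fits that left out 1 library, with adjusted p up to 0.099 there; with median centring the lost calls reached 0.163 (Notch2). Fmo2 lost it without control APC library 3, Hsp90aa1 without control FIP library 2, and Nr4a2 without transgenic FIP library 4. Adipoq, Atf4, Ccl9 and H2-M3 lost it in 2 fits each, Nnat in 3, Hba-a1, Hba-a2 and Pcna in 4, Tgfb3 in 5 and Lox in 6. Ier3, Lep and Retn lost it in 8, Lbp in 9, Hbb-bs, Krt8 and Mogat1 in 10, Lrrn4 in 12 and Cdkn1c in 13. Loxl4, Prdm16 and Smad1 lost it in 14, Fdft1, Myd88, Ror2 and Zim1 in 15, and Fstl3 and Sdha in 16.

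Signs reversed for genes that were not called, or under covariates. Pecam1 went from 0.06 to -0.003 and -0.01 without both libraries numbered 1 of the transgenic and of the control mice, and to -0.013 without both APC libraries numbered 1. Pdgfrb went to -0.0204 and -0.029 with the macrophage and erythroid covariates and Ptprc to 0.17 with the macrophage covariate. With the erythroid covariate Hba-a1, Hba-a2, Hbb-bs and Zfp423 went to 0.0264, 0.03005, 0.0416 and 0.0283, a covariate built from the globin genes themselves. Otherwise the cause of these changes was not tested. Values at or below 1 CPM are listed as 0, so differences of low genes such as Col11a1 and Oas3 in APCs were not measurable.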
